A study of Homo sapiens with 16 samples.

Results

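The genes described here encode proteins of the kinetochore and of the spindle assembly checkpoint. They were taken from a list of 38 gene symbols and matched by their GENCODE 29 names to the identifiers of both count tables. All 38 were found among the 58735 genes of each table, and all 38 passed the filter on low counts in each line. The series measured polyadenylated RNA in MDA-MB-231 and SUM159PT, human cell lines established from triple-negative breast cancer. Cells received Lipofectamine2000 with an siRNA against YES1 (siYES1), a tyrosine kinase of the Src family, or with a control siRNA against firefly luciferase (siNS), and were collected after 48 h. The labels give the genotype as WT in all 4 groups, each of which has 4 libraries, 16 in all, and no untransfected cells are among them. The design text calls the replicates technical, so p-values measure only the spread between such samples. In the table of SUM159PT the column names begin with S149, so the name of that line rests on the sample titles.

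The kinetochore is a protein assembly built on centromeric chromatin that holds chromosomes to the microtubules of the mitotic spindle. Its inner layer, the constitutive centromere-associated network (CCAN), binds nucleosomes with the histone variant CENP-A. Its outer layer, made of KNL1, the MIS12 complex and the NDC80 complex, binds microtubules. A kinetochore without microtubules activates the spindle checkpoint, in which MAD2 and BUBR1 hold back CDC20, the activator of the anaphase-promoting complex. Transcripts of many of these genes are known to rise towards mitosis in cycling cells, and their promoters are known to carry the cell cycle genes homology region (CHR), an element that the DREAM and MuvB complexes bind. In bulk RNA, more cells in one stage of the cell cycle and more of a transcript per cell cannot be told apart.

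Promoter sequences are shown first, as examples of members with this element and 1 without it. RefSeq promoters on GRCh38.p14, 250 bases before to 50 after the annotated start, were matched by symbol for 32 of the 38 genes. Only the first entry of each symbol was used, so other starts of a gene were not searched. The CHR was searched as TTTGAA or TTCGAA on both strands, where TTTGAA reads TTCAAA on the other strand and TTCGAA reads the same on both. The CCAAT box, the binding site of NF-Y, was searched as CCAAT, or ATTGG on the other strand. Below are 70 bases before to 30 after the start, 5′ to 3′ on the strand of the gene, with CHR and CCAAT words of either strand in capitals. The first 6 genes rose in both lines, and SPC25 rose in MDA-MB-231 and was called different between the lines. CLASP1 was called lower in both lines, but its call in MDA-MB-231 is lost under 5 of 6 other settings.
SGO1: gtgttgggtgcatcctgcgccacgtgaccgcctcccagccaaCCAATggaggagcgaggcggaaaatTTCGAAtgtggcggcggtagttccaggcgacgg
NDC80: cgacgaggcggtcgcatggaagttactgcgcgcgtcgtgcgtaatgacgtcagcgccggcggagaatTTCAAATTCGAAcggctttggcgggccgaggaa
NUF2: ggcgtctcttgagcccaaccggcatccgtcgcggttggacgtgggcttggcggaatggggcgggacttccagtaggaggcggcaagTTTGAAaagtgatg
CENPN: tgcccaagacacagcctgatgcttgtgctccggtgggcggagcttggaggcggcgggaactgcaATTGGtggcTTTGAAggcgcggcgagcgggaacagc
TRIP13: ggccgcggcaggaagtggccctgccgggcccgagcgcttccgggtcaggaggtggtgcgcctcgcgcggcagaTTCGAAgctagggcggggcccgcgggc
MAD2L1: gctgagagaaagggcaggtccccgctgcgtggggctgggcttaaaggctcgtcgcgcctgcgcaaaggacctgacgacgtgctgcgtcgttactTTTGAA
SPC25: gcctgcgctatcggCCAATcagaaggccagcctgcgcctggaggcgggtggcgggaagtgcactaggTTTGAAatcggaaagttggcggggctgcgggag
CLASP1: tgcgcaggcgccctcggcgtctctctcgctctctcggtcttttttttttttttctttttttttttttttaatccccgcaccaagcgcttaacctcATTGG
These windows lie at chr3:20186177-20186276 (minus strand) for SGO1, chr18:2571487-2571586 (plus strand) for NDC80, chr1:163321884-163321983 (plus strand) for NUF2, chr16:81007144-81007243 (plus strand) for CENPN, chr5:892814-892913 (plus strand) for TRIP13, chr4:120066819-120066918 (minus strand) for MAD2L1, chr2:168890401-168890500 (minus strand) for SPC25 and chr2:121649433-121649532 (minus strand) for CLASP1.

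A CHR word was found in 14 of the 32 member promoters (43.8%), against 16.6% of the 27305 RefSeq promoters and 13.3% of the 14896 promoters of protein-coding genes. Among members called higher in both lines, 10 of the 12 with a promoter had one: CENPN, CENPO, CENPW, INCENP, MAD2L1, NDC80, NUF2, SGO1, SPDL1 and TRIP13. CENPQ and SGO2 of that group had none. Among the other members, 4 of 20 had one: CENPC, SPC25, ZW10 and ZWINT. With TTTGAA as the only word these counts were 7 of 12 and 4 of 20, and it was found in 34.4% of member promoters against 15.4% of all promoters. In SGO1, CENPN, TRIP13 and SPC25 the word begins within 4 bases of the start, and NDC80 has 2 adjoining words there. A CCAAT word was found in 19 of 32 member promoters (59.4%), against 35.7% of all promoters. The E2F words TTTCGCGC, TTTGGCGC and TTTCCCGC were found in 2 of 32 (6.25%), against 2.79% of all promoters. The split by call was made after the values were seen and was not tested. It used the fits of all libraries, and without SUM159PT siNS replicate 1, 6 more members were called higher in both lines. Of these, ZWINT had a CHR word, DSN1, SPC24 and CENPI had none, and KNTC1 and CENPL had no matched promoter. A word is a match of letters only, and no factor binding was measured.

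YES1 itself checks the labels. It stood at 71.5, 57.1, 63.8 and 60.3 CPM with siNS and 13.6, 14.5, 14.3 and 12.7 CPM with siYES1 in MDA-MB-231, in order of replicate number, where CPM stands for counts set to a common library size with TMM factors of the line. Its SUM159PT levels were 99.7, 149.6, 151 and 136 CPM with siNS and 15.8, 15.71, 19.4 and 17.95 CPM with siYES1. The siYES1 libraries were all below the siNS libraries in both lines. Its log2 fold change was -2.20 ± 0.094 (SE; adjusted p = 5.25e-11, edgeR's quasi-likelihood test) in MDA-MB-231 and -2.96 ± 0.14 (adjusted p = 3.88e-08) in SUM159PT, or -3.08 without siNS replicate 1. Of the markers of the lines, ESR1 averaged 0.0257 and 0.504 CPM with siNS in MDA-MB-231 and SUM159PT and PGR at most 0.0296 CPM, while ERBB2 was measurable at 119 and 66.3 CPM. VIM averaged 489 and 1312 CPM and CDH1 was below 1 CPM in both. The other mesenchymal markers were mixed, with CDH2 at 1.66 and 215 CPM, ZEB1 at 57 and 80.9 CPM and FN1 at 385 and 2774 CPM. So were the other epithelial markers, with KRT19 at 975 and 0.721 CPM, KRT18 at 348 and 127 CPM and EPCAM at 23.45 and 0.632 CPM. KRT5 averaged 0.088 and 2.29 CPM and KRT14 0.12 and 0.13 CPM. Libraries held 15863961 to 21158617 counts in MDA-MB-231 and 15680459 to 23451253 in SUM159PT.

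In SUM159PT, siNS replicate 1 stood apart from the other siNS libraries, in these genes and beyond them. Pairs of libraries were compared over genes with a summed count of at least 10. Chi-squared per degree of freedom was 29.98 to 44.73 between siNS replicate 1 and replicates 2 to 4, and 6.504 to 12.25 among those. Of the 38 members, 31 were higher in siNS replicate 1 than in the other 3 siNS libraries. For 14 of these 31 it was also above all 4 siYES1 libraries. Shares of all genes are not given for these 2 counts, so they do not set the members apart from other genes. Summed over the members it held 1399 CPM, against 1088, 1132 and 1143 CPM in siNS replicates 2 to 4 and 1453 to 1503 CPM with siYES1. Genes of the G1/S transition (CCNE1, CCNE2, PCNA and MCM2 to MCM7) summed to 670 CPM in it, against 296.2 to 306.2 CPM in the other siNS libraries. Counts of calls and log2 fold changes of these genes in SUM159PT are therefore given with and without this library, and what sets it apart was not tested.

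In MDA-MB-231, 31 of the 38 genes rose with siYES1, 2 fell (BOD1 and CLASP1) and 5 were not called (MAD1L1, MAD2L1BP, NSL1, PMF1 and CENPT). A gene was called at an edgeR adjusted p under 0.05. Of the 14319 genes tested in this line, 24.9% were called higher and 27.5% lower. The median log2 fold change was 0.82 over the members and 0.0015 over all genes tested, and 13 members were at least 2-fold higher. Libraries of the 2 groups did not overlap for 30 members that were higher and for 1 that was lower, against 22.4% and 24.7% of all genes. Summed over the members the level was 1408 to 1575 CPM with siNS and 2360 to 2459 CPM with siYES1.

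In SUM159PT, 14 members rose, CLASP1 fell and 23 were not called, where 17.7% of the 14469 genes tested were called higher and 19% lower. The count of members that rose is above the background share, while the single gene that fell is below it. The median log2 fold change was 0.24 over the members and -0.029 over all genes. Groups did not overlap for 10 higher and 2 lower members, against 18.2% and 18.6% of all genes. Without siNS replicate 1, 20 members rose and CLASP1 fell, with 21% and 21.5% of the 14693 genes then tested called higher and lower, and the median was 0.41. The 6 added were KNTC1, ZWINT, DSN1, SPC24, CENPI and CENPL, and no call was lost. For 21 members all 4 siYES1 libraries were above siNS replicates 2 to 4, and for 2 all were below them, against 22.7% of all genes in each direction. With total counts in place of TMM as the scaling, the median of all genes in this line shifted by -0.17, and the calls over all genes went from 2566 higher and 2755 lower to 1394 and 4173. Of the members 9 then rose and 3 fell, with TRIP13, SPDL1, CENPN, CENPO and CENPW losing their calls and MAD2L1BP and NSL1 gaining one as lower.

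The 14 genes that rose in both lines were MAD2L1, BUB3, TRIP13, SPDL1, KNL1, NDC80, NUF2, CENPN, CENPO, CENPQ, CENPW, INCENP, SGO1 and SGO2. A further 17 rose in MDA-MB-231 and were not called in SUM159PT, where no member was called that was not also called in MDA-MB-231. Of these 17, 11 remained without a call in SUM159PT when siNS replicate 1 was left out.

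**Figure D1:**
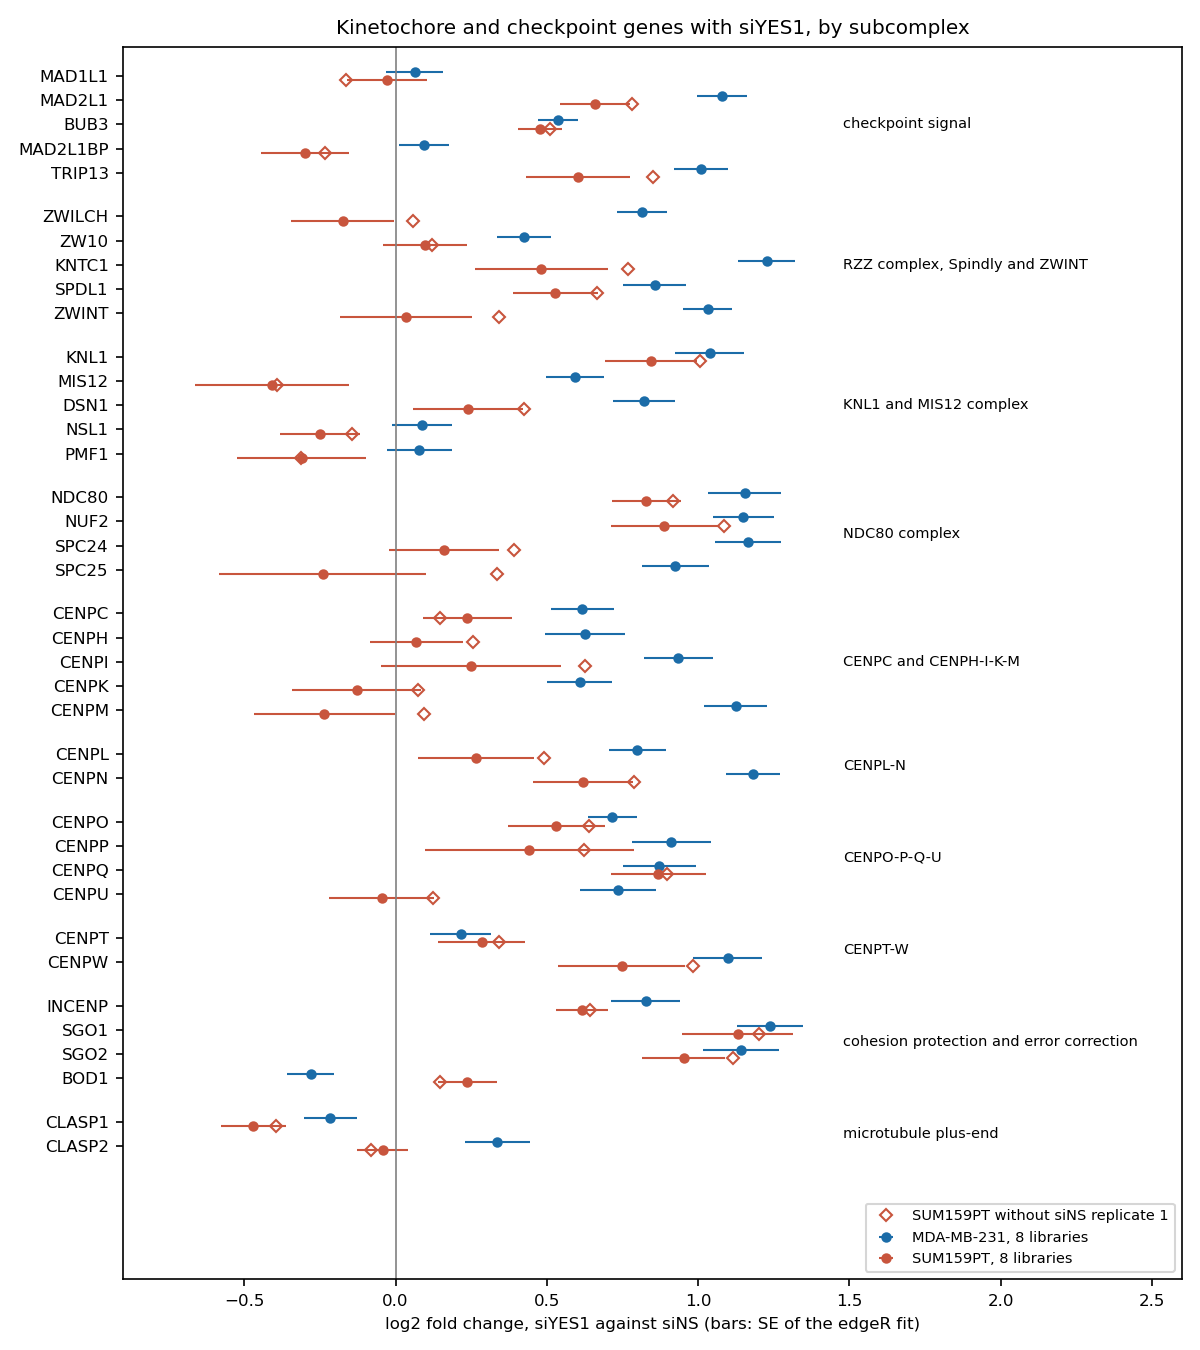
Log2 fold change of siYES1 against siNS for each of the 38 genes (x axis), grouped by subcomplex (y axis), with the SE of the edgeR fit as bars. MDA-MB-231 (blue) lies to the right of 0 for 36 genes, SUM159PT (red) for 26, and SUM159PT without siNS replicate 1 (open diamonds) for 31.

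**Figure D2:**
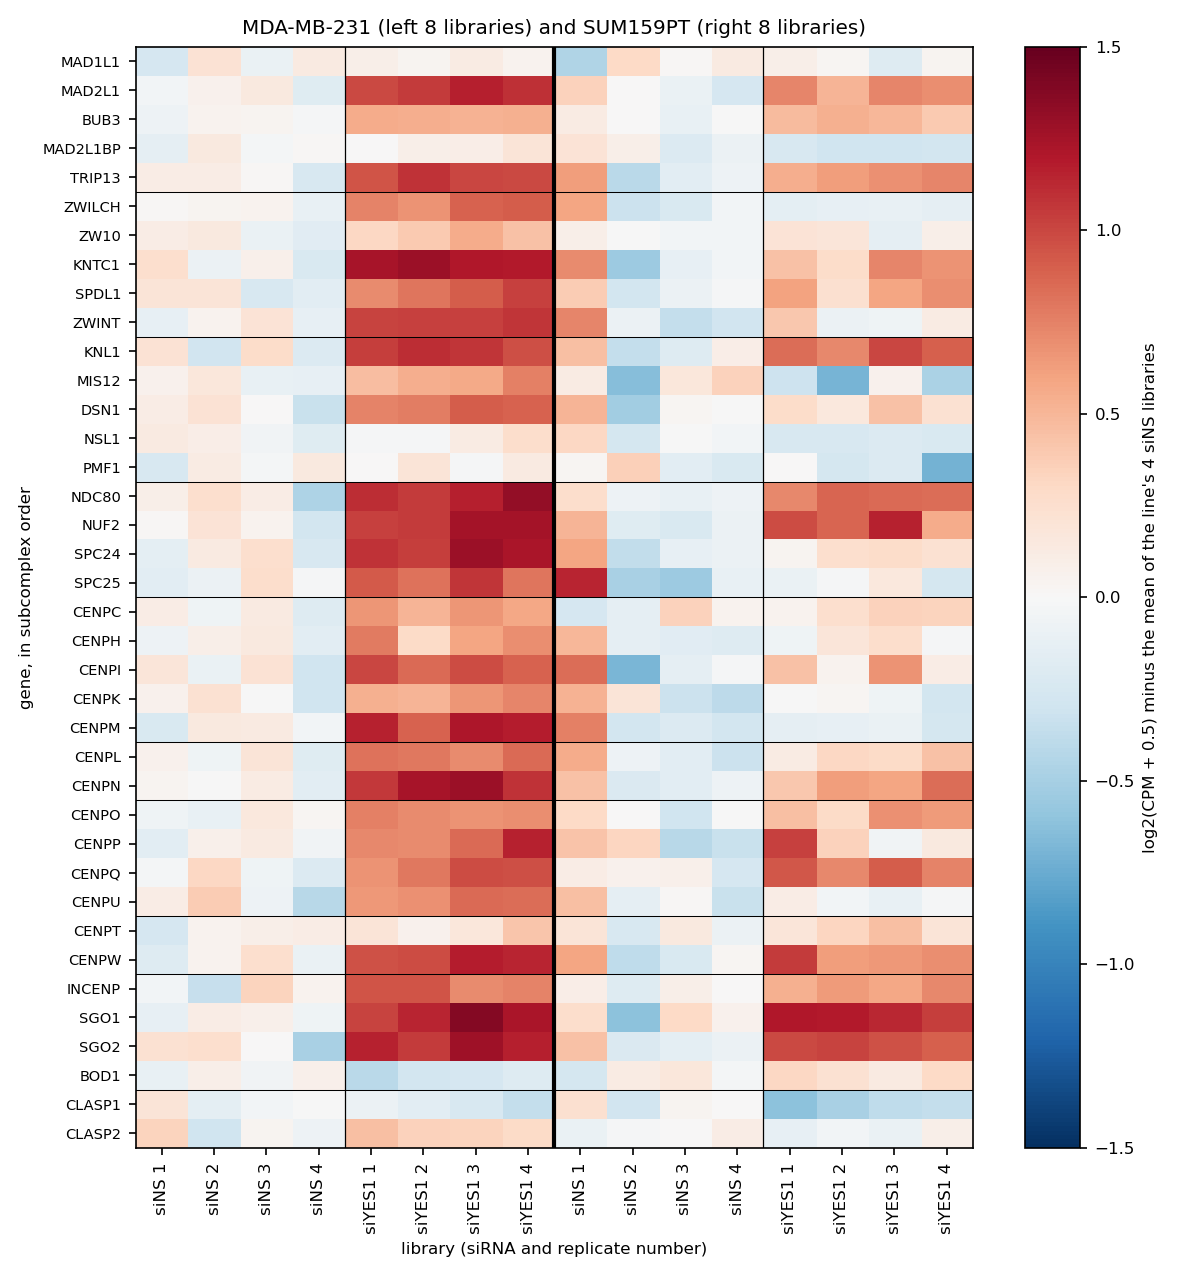
Level of each gene (rows of the heat map) in each of the 16 libraries (columns), as log2(CPM + 0.5) minus the mean of the 4 siNS libraries of the same line. The siYES1 columns of MDA-MB-231 are red for most genes, and in SUM159PT the first siNS column is red for many genes whose siYES1 columns are pale.

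Levels between genes were compared as CPM per kilobase of merged exon, means of 4 libraries. With siNS the highest member in both lines was BOD1, at 50.1 in MDA-MB-231 and 43.4 in SUM159PT. CENPP was the lowest in both, at 0.703 and 0.266. ZWINT followed BOD1 in MDA-MB-231 at 33.3, and TRIP13 in SUM159PT at 18.1. Over siNS replicates 2 to 4 of SUM159PT, BOD1 was again the highest, at 45.95, and BUB3, at 17.04, and INCENP, at 15.6, were above TRIP13, at 15.1. CENPP shares 42.7% of its merged exon length with other genes, CENPO 31.4%, PMF1 23.3%, CENPN 22.8%, CENPT 19.6%, SGO1 17.7%, CENPU 11.7%, ZWILCH 10.9% and MIS12 9.53%. The counting is not stated to use strand, so their counts are less certain. PMF1 shares its bases with PMF1-BGLAP on the same strand, an overlap that counting by strand would not resolve. BOD1, BUB3, CENPC, CENPI, CENPU and SGO1 have pseudogenes by name that could share reads.

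Of the genes of the checkpoint signal, MAD2L1, BUB3 and TRIP13 rose in both lines, and MAD1L1 and MAD2L1BP were called in neither. MAD2L1 encodes MAD2, the protein that captures CDC20. In MDA-MB-231 it stood at 54.9, 58.9, 62.6 and 49.6 CPM with siNS and 112, 117, 127 and 121 CPM with siYES1. The 8 SUM159PT libraries gave 85.9, 67.6, 63.1 and 56.7 CPM with siNS and 113, 96.4, 112 and 110.1 CPM with siYES1. The groups did not overlap in either line, although siNS replicate 1 was the highest siNS library in SUM159PT. The change on the log2 scale came to 1.08 ± 0.083 (SE; adjusted p = 1.97e-08 by edgeR) in MDA-MB-231 and 0.66 ± 0.12 (adjusted p = 0.000702) in SUM159PT, or 0.78 without siNS replicate 1.

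TRIP13 is the ATPase that, with the MAD2 partner encoded by MAD2L1BP, takes MAD2 out of its active form. It ran from 27.7 to 35.7 CPM with siNS and 63.9 to 70 CPM with siYES1 in MDA-MB-231, a log2 fold change of 1.01. In SUM159PT it ran from 46.8 to 95.8 CPM with siNS and 90.7 to 104 CPM with siYES1, and the overlap came from siNS replicate 1. The log2 fold change there was 0.60 (edgeR adjusted p = 0.0141) and 0.85 (adjusted p = 8.97e-08) without that library. BUB3, which carries BUB1 and BUBR1 to KNL1, had log2 fold changes of 0.54 and 0.48 in MDA-MB-231 and SUM159PT, and 0.51 in SUM159PT without that library.

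MAD1L1, which anchors MAD2 at kinetochores, had log2 fold changes of 0.064 and -0.028, and -0.16 (edgeR adjusted p = 0.102) in SUM159PT without siNS replicate 1. For MAD2L1BP they were 0.094 in MDA-MB-231 and -0.30 in SUM159PT (edgeR adjusted p = 0.126), or -0.23 without that library. In SUM159PT all 4 siYES1 libraries of MAD2L1BP, 9.47 to 9.90 CPM, were below the siNS libraries, 10.2 to 13.6 CPM, yet the gene did not pass the test.

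All 5 genes of the RZZ complex, Spindly and ZWINT rose in MDA-MB-231, and SPDL1 rose in SUM159PT. RZZ brings dynein and MAD1 to unattached kinetochores. KNTC1 encodes ROD, its scaffold, and stood at 46.4, 36.6, 41 and 33.3 CPM with siNS and 92.7, 95.5, 90.4 and 89.8 CPM with siYES1 in MDA-MB-231. For SUM159PT the levels were 30.2, 12.4, 16.8 and 17.8 CPM with siNS and 25.1, 22.2, 30.8 and 29.6 CPM with siYES1. In MDA-MB-231 every siYES1 library was well above every siNS library, while in SUM159PT siNS replicate 1 lay among the siYES1 libraries. The log2 fold change of KNTC1 was 1.23 ± 0.094 (SE; adjusted p = 1.95e-08 by edgeR) in MDA-MB-231 and 0.48 ± 0.22 (adjusted p = 0.104) in SUM159PT. Without siNS replicate 1 it was 0.77 (adjusted p = 0.000207) in SUM159PT.

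SPDL1 encodes Spindly, the adaptor that RZZ uses to hold dynein. It stood at 48.3, 30.5, 34.5 and 36.3 CPM with siNS and 56.2, 43.8, 55.8 and 59.9 CPM with siYES1 in SUM159PT. The siYES1 library of replicate 2 was below siNS replicate 1, and the other siYES1 libraries were above all siNS libraries. siYES1 against siNS gave a log2 fold change of 0.53 ± 0.14 (SE; adjusted p = 0.0103 by edgeR), or 0.67 without siNS replicate 1, and 0.86 in MDA-MB-231, where the gene ran from 50.6 to 68.5 CPM with siNS and 97.8 to 122 CPM with siYES1.

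ZWINT, which ties RZZ to KNL1, and ZWILCH, the third RZZ subunit, are among the genes whose response was called different between the lines. ZWINT ran from 72.2 to 90.8 CPM with siNS and 159 to 166 CPM with siYES1 in MDA-MB-231 and from 20.4 to 44.1 CPM with siNS and 24.7 to 34.9 CPM with siYES1 in SUM159PT, where the highest siNS value was replicate 1. Its log2 fold changes were 1.03 and 0.035, or 0.34 (edgeR adjusted p = 0.0356) in SUM159PT without siNS replicate 1. ZWILCH had log2 fold changes of 0.81 and -0.17, and 0.058 without that library. ZW10 had 0.42 and 0.10, and 0.12 without it.

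Of KNL1 and the MIS12 complex, KNL1, MIS12 and DSN1 rose in MDA-MB-231, and KNL1 rose in SUM159PT. KNL1 is the platform on which the BUB proteins assemble. It stood at 35.9, 25.1, 37.5 and 26.5 CPM with siNS and 63.8, 66.96, 65.2 and 60.7 CPM with siYES1 in MDA-MB-231. Its SUM159PT levels were 44.2, 25.2, 28.1 and 34.6 CPM with siNS and 58.2, 53.4, 64.9 and 60.6 CPM with siYES1. The groups did not overlap in either line. On the log2 scale the gene moved by 1.04 ± 0.11 (SE; adjusted p = 1.18e-06 by edgeR) in MDA-MB-231 and 0.84 ± 0.15 (adjusted p = 0.000772) in SUM159PT, or 1.01 without siNS replicate 1.

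The MIS12 complex, of MIS12, DSN1, NSL1 and PMF1, joins the inner kinetochore to KNL1 and NDC80. MIS12 stood at 22.9, 24.7, 20.3 and 20.2 CPM with siNS and 30.4, 32.3, 32.8 and 37.5 CPM with siYES1 in MDA-MB-231, with no overlap. The 8 SUM159PT libraries gave 7.28, 4.09, 7.52 and 8.57 CPM with siNS and 5.24, 3.91, 6.93 and 4.62 CPM with siYES1, with overlapping groups. The log2 fold changes were 0.59 (edgeR adjusted p = 7.99e-05) and -0.41 (adjusted p = 0.231), or -0.39 without siNS replicate 1. DSN1 had log2 fold changes of 0.82 and 0.24, or 0.43 (adjusted p = 0.0191) without siNS replicate 1. NSL1 (0.087 and -0.25) and PMF1 (0.078 and -0.31) were called in neither line, and had -0.14 and -0.31 in SUM159PT without that library.

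All 4 subunits of the NDC80 complex rose in MDA-MB-231, with log2 fold changes of 0.93 to 1.17, and NDC80 and NUF2 rose in SUM159PT. NDC80 and NUF2 form the end of this rod that binds microtubules, and SPC24 and SPC25 the end that binds the MIS12 complex. NUF2 stood at 26.3, 16.1, 15.5 and 17.2 CPM with siNS and 36.5, 33.9, 41.4 and 27.2 CPM with siYES1 in SUM159PT. Here the lowest siYES1 library was just above siNS replicate 1, so the groups did not overlap. The fitted log2 fold change was 0.89 ± 0.18 (SE; adjusted p = 0.00169 by edgeR), 1.09 without siNS replicate 1, and 1.15 in MDA-MB-231. NDC80 had 1.15 in MDA-MB-231 and 0.83 in SUM159PT, or 0.92 without that library.

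SPC24 stood at 19.1, 23.3, 25.1 and 17.7 CPM with siNS and 45.1, 43.8, 51.97 and 50.1 CPM with siYES1 in MDA-MB-231. For SUM159PT the levels were 27.9, 14.1, 16.8 and 17.3 CPM with siNS and 18.99, 21.96, 22.4 and 21.6 CPM with siYES1, with siNS replicate 1 above every siYES1 library. The siYES1 effect as a log2 fold change was 1.17 ± 0.11 (SE; adjusted p = 1.79e-07 by edgeR) in MDA-MB-231 and 0.16 ± 0.18 (adjusted p = 0.529) in SUM159PT, or 0.39 (adjusted p = 0.0143) without that library. SPC25 stood at 16.6, 5.03, 4.81 and 6.70 CPM with siNS and 6.74, 7.18, 8.15 and 5.94 CPM with siYES1 in SUM159PT. Its siNS replicate 1 was higher than any other library of the line, and its log2 fold change was -0.24 with that library and 0.34 (adjusted p = 0.199) without it.

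Per kilobase of exon, the NDC80, NUF2, SPC24 and SPC25 levels in MDA-MB-231 were 10.04, 8.62, 7.50 and 6.73 with siNS and 22.3, 19.1, 16.8 and 12.8 with siYES1, in the same order of subunits. In SUM159PT they were 5.28, 5.59, 6.70 and 4.50 with siNS and 9.38, 10.3, 7.48 and 3.80 with siYES1. There NDC80 and NUF2 were below SPC24 with siNS and above it with siYES1. These are means of 4 libraries, siNS replicate 1 included, and over siNS replicates 2 to 4 the levels were 4.94, 4.84, 5.66 and 3.00. The change in order was not tested.

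CENPC and the CENPH-I-K-M group all rose in MDA-MB-231 (5 of 5), and none was called in SUM159PT with all libraries. CENPC binds the CENP-A nucleosome and the MIS12 complex, and CENPH, CENPI, CENPK and CENPM form a CCAN subcomplex that rests on it. CENPM stood at 16.5, 21.5, 21.3 and 18.9 CPM with siNS and 43.8, 36.2, 45.6 and 44.6 CPM with siYES1 in MDA-MB-231. Its SUM159PT levels were 17.5, 8.35, 8.80 and 8.31 CPM with siNS and 9.26, 9.29, 9.47 and 8.43 CPM with siYES1. Apart from siNS replicate 1, the SUM159PT libraries of both siRNAs covered a narrow range. Its log2 fold change was 1.12 ± 0.10 (SE; adjusted p = 1.61e-07 by edgeR) in MDA-MB-231 and -0.24 ± 0.23 (adjusted p = 0.462) in SUM159PT, or 0.093 (adjusted p = 0.675) without that library.

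CENPI rose by 0.94 on the log2 scale in MDA-MB-231. In SUM159PT its log2 fold change was 0.25, and 0.63 (edgeR adjusted p = 0.0301) without siNS replicate 1. CENPC had 0.62 and 0.24, CENPH 0.63 and 0.069, and CENPK 0.61 and -0.13 in MDA-MB-231 and SUM159PT. Without that library CENPC had 0.15, CENPH 0.26 (adjusted p = 0.0544 by edgeR) and CENPK 0.073. CENPH ran from 6.70 to 8.42 CPM with siNS and 9.27 to 13.3 CPM with siYES1 in MDA-MB-231 and from 28.1 to 45.4 CPM with siNS and 30.8 to 38.5 CPM with siYES1 in SUM159PT, each scaled within its line.

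CENPL and CENPN, a pair in which CENPN reads the CENP-A nucleosome, rose in MDA-MB-231, and CENPN rose in SUM159PT. CENPN stood at 22.8, 21.9, 23.99 and 19.8 CPM with siNS and 46.5, 52.7, 54.2 and 47.2 CPM with siYES1 in MDA-MB-231. The 8 SUM159PT libraries gave 17.8, 11.1, 11.5 and 12.3 CPM with siNS and 17.3, 20.2, 19.8 and 23.4 CPM with siYES1. The groups were apart in MDA-MB-231, and in SUM159PT siNS replicate 1 lay just above the lowest siYES1 library. The change on the log2 scale came to 1.18 ± 0.089 (SE; adjusted p = 1.7e-08 by edgeR) in MDA-MB-231 and 0.62 ± 0.17 (adjusted p = 0.0104) in SUM159PT, or 0.79 without that library. CENPL had 0.80 and 0.27, or 0.49 (adjusted p = 0.0092) without it.

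All 4 genes of the CENPO-P-Q-U group rose in MDA-MB-231, and CENPO and CENPQ rose in SUM159PT. This CCAN subcomplex is known to bring PLK1 to kinetochores through CENPU and to help hold microtubules through CENPQ. CENPQ stood at 6.93, 6.69, 6.79 and 5.30 CPM with siNS and 12.6, 10.9, 12.4 and 11.01 CPM with siYES1 in SUM159PT. Every siYES1 library was above every siNS library, and siNS replicate 1 was close to replicates 2 and 3. siYES1 against siNS gave a log2 fold change of 0.87 ± 0.16 (SE; adjusted p = 0.000848 by edgeR) in SUM159PT, 0.90 without siNS replicate 1, and 0.87 ± 0.12 in MDA-MB-231, where the gene ran from 10.7 to 15.5 CPM with siNS and 20.2 to 25.1 CPM with siYES1.

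CENPP stood at 6.11, 7.29, 7.56 and 6.59 CPM with siNS and 11.6, 11.6, 12.8 and 15.8 CPM with siYES1 in MDA-MB-231 without overlap, a log2 fold change of 0.91 ± 0.13 (SE; adjusted p = 2.04e-05 by edgeR). For SUM159PT the levels were 3.55, 3.26, 1.74 and 1.88 CPM with siNS and 5.62, 3.32, 2.38 and 2.81 CPM with siYES1, with overlapping groups and a log2 fold change of 0.44, or 0.62 (adjusted p = 0.166) without siNS replicate 1. CENPO rose by 0.72 and 0.53 on the log2 scale in MDA-MB-231 and SUM159PT, and by 0.64 in SUM159PT without that library. The SUM159PT call of CENPO (adjusted p = 0.02) is lost without siNS replicate 3 (0.0622), siYES1 replicate 3 (0.06) or siYES1 replicate 4 (0.0584). CENPU rose by 0.74 in MDA-MB-231 and had -0.045 in SUM159PT, or 0.12 without siNS replicate 1, where it ran from 9.70 to 17.1 CPM with siNS and 11.4 to 13.4 CPM with siYES1.

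CENPT and CENPW pair through histone folds, and CENPT offers a second anchor for NDC80. CENPW rose in both lines and CENPT was called in neither. CENPW stood at 8.57, 10.3, 11.9 and 9.17 CPM with siNS and 19.7, 20.01, 22.95 and 22.5 CPM with siYES1 in MDA-MB-231. Its SUM159PT levels were 13.6, 6.69, 7.47 and 9.06 CPM with siNS and 18.8, 13.97, 14.2 and 14.7 CPM with siYES1. The groups did not overlap in either line, although siNS replicate 1 was close to the lowest siYES1 library in SUM159PT. On the log2 scale the gene moved by 1.10 ± 0.12 (SE; adjusted p = 6.81e-07 by edgeR) in MDA-MB-231 and 0.75 ± 0.21 (adjusted p = 0.0134) in SUM159PT. Without siNS replicate 1 it was 0.98, and without siYES1 replicate 1 the adjusted p was 0.05, at which the call is lost. CENPT had 0.21 and 0.29, and 0.34 (adjusted p = 0.0611) in SUM159PT without siNS replicate 1.

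INCENP, SGO1 and SGO2 rose in both lines. SGO1 guards centromeric cohesin until anaphase and had the largest log2 fold change of the members in both lines. It stood at 8.57, 10.3, 9.96 and 8.96 CPM with siNS and 19.6, 21.5, 25.2 and 22.7 CPM with siYES1 in MDA-MB-231. The 8 SUM159PT libraries gave 11.6, 6.04, 11.8 and 9.97 CPM with siNS and 22.6, 22.4, 21.5 and 20.1 CPM with siYES1. The groups were far apart in both lines, and in SUM159PT siNS replicate 3 was the highest siNS library, ahead of replicate 1. The fitted log2 fold change was 1.24 ± 0.11 (SE; adjusted p = 9.65e-08 by edgeR) in MDA-MB-231 and 1.13 ± 0.18 (adjusted p = 0.000378) in SUM159PT, or 1.20 without siNS replicate 1. Its promoter, printed above, holds a CCAAT word and, nearer the start, a CHR word.

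SGO2, a relative of SGO1, ran from 25.1 to 42.3 CPM with siNS and 73.7 to 86.3 CPM with siYES1 in MDA-MB-231 and from 22.4 to 35.6 CPM with siNS and 48.99 to 52.99 CPM with siYES1 in SUM159PT. Its log2 fold changes were 1.14 and 0.95, and 1.12 in SUM159PT without siNS replicate 1. INCENP, the scaffold of the chromosomal passenger complex that holds Aurora B, ran from 56.1 to 90.4 CPM with siNS and 118 to 139 CPM with siYES1 in MDA-MB-231 and from 62.5 to 76.7 CPM with siNS and 103 to 118 CPM with siYES1 in SUM159PT. Its log2 fold changes were 0.83 and 0.62 (edgeR adjusted p = 1.34e-05 and 0.00012), and 0.64 without that library.

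BOD1, a protein needed for chromosome biorientation, went the other way in MDA-MB-231. It stood at 92.9, 107, 97.2 and 106 CPM with siNS and 76.2, 83.4, 84.6 and 88.1 CPM with siYES1 there. For SUM159PT the levels were 72.2, 94.4, 98.2 and 85.6 CPM with siNS and 108, 102, 95.9 and 107 CPM with siYES1. All siYES1 libraries were below all siNS libraries in MDA-MB-231, while in SUM159PT the groups overlapped and siNS replicate 1 was the lowest library. The siYES1 effect as a log2 fold change was -0.28 ± 0.077 (SE; adjusted p = 0.0059 by edgeR) in MDA-MB-231 and 0.24 ± 0.10 (adjusted p = 0.074) in SUM159PT, or 0.15 without that library.

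CLASP1 and CLASP2 stabilise microtubule plus ends, at kinetochores and elsewhere in the cell. CLASP1 stood at 127, 87.7, 111 and 107 CPM with siNS and 70.1, 76.6, 82.3 and 83.3 CPM with siYES1 in SUM159PT. All siYES1 libraries were below all siNS libraries there. Its log2 fold change was -0.47 ± 0.11 (SE; adjusted p = 0.00396 by edgeR), and -0.39 without siNS replicate 1. In MDA-MB-231 CLASP1 ran from 74.4 to 94.3 CPM with siNS and 64.3 to 77.3 CPM with siYES1, with overlap. Its call there, at -0.22 (adjusted p = 0.0478), is lost under 5 of 6 other settings, among them DESeq2 (0.0595), and under 6 of 8 fits that leave out 1 library. Without siNS replicate 1 the value is -0.14 (edgeR adjusted p = 0.137) and without siYES1 replicate 4 it is -0.17 (0.164).

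CLASP2 stood at 85.3, 54.9, 69.7 and 63.8 CPM with siNS and 92.4, 86.3, 85.1 and 82.3 CPM with siYES1 in MDA-MB-231. One siNS library, replicate 1, reached the level of the siYES1 libraries. The change on the log2 scale came to 0.34 ± 0.11 (SE; adjusted p = 0.0144 by edgeR) in MDA-MB-231 and -0.042 (adjusted p = 0.733) in SUM159PT, or -0.081 without its siNS replicate 1.

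The difference between the lines was tested itself, as an interaction term in a fit of the 16 libraries, where a negative value means a smaller log2 fold change in SUM159PT. The interaction was called lower for 7 members (ZWILCH, ZWINT, MIS12, SPC24, SPC25, CENPM and CENPU) and higher for BOD1, where 8.85% and 15.4% of the 16299 genes tested were called lower and higher. The median was -0.29 over the members and 0.030 over all genes, and 33 of 38 members were below 0. The largest was CENPM, at -1.26 ± 0.26 (SE; adjusted p = 0.000978 by edgeR). For the other genes called lower it was -0.89 for ZWILCH, -0.90 for ZWINT, -0.91 for MIS12, -0.91 for SPC24, -1.07 for SPC25 and -0.68 for CENPU. BOD1 had 0.61 ± 0.13 (adjusted p = 0.00129).

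Without SUM159PT siNS replicate 1, 6 members were called lower and BOD1 higher, against 10.5% and 13.3% of the 16672 genes then tested. SPC25 was the gene whose call ended, at -0.55 (edgeR adjusted p = 0.0578). That call also ended in 10 of the other 15 fits that left out 1 library (adjusted p = 0.0544 to 0.0782). The call of CENPU ended without MDA-MB-231 siNS replicate 4 (adjusted p = 0.0511), siYES1 replicate 3 (0.0513) or siYES1 replicate 4 (0.0503). CENPM then stood at -0.99, MIS12 at -0.95, SPC24 at -0.73, ZWILCH at -0.72, ZWINT at -0.65, CENPU at -0.57 and BOD1 at 0.47. The interaction shares scaling factors across the lines, so it is not exactly the difference of the values fitted in each line. With factors set within each line, a choice made after the data were seen, 11 members were called lower, those 7 with MAD2L1, KNTC1, CENPK and CENPN, and BOD1 higher. That choice moved the median of all genes by -0.101 and the calls over all genes from 2511 higher and 1442 lower to 1840 and 1913, and MAD1L1, BUB3 and CENPQ were then below 0 as well. Total counts moved it by -0.22, with 17 members lower and the calls over all genes at 1375 higher and 2795 lower.

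In the fit of all 16 libraries with TMM scaling, the interaction was called for none of the 14 genes that rose in both lines. It was -0.46 for CENPN and -0.32 for MAD2L1, with edgeR adjusted p of 0.0787 and 0.118. For the other 12 it was -0.31 for TRIP13, -0.25 for CENPW, -0.23 for SPDL1, -0.23 for NDC80, -0.16 for NUF2, -0.11 for INCENP, -0.10 for KNL1, -0.093 for SGO2, -0.087 for CENPO, -0.0089 for SGO1, 0.036 for BUB3 and 0.093 for CENPQ. The SEs of the 14 were 0.094 to 0.25. Under other settings CENPN was called lower with RLE scaling (edgeR adjusted p = 0.047), total counts (0.0168), factors set within each line (0.0342) and DESeq2 (0.028). CENPN was also called without SUM159PT siNS replicate 2 (edgeR adjusted p = 0.0401) or siYES1 replicate 4 (0.0495). MAD2L1 was called lower with total counts (edgeR adjusted p = 0.0163), factors set within each line (0.0412) and without SUM159PT siNS replicate 4 (0.0459). A value that misses the threshold does not show that the lines respond alike. The 14 genes were also picked by their calls in these same libraries. That choice leaves out members with a small change in SUM159PT, so the lack of interaction calls among the 14 is not a separate result.

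**Figure D3:**
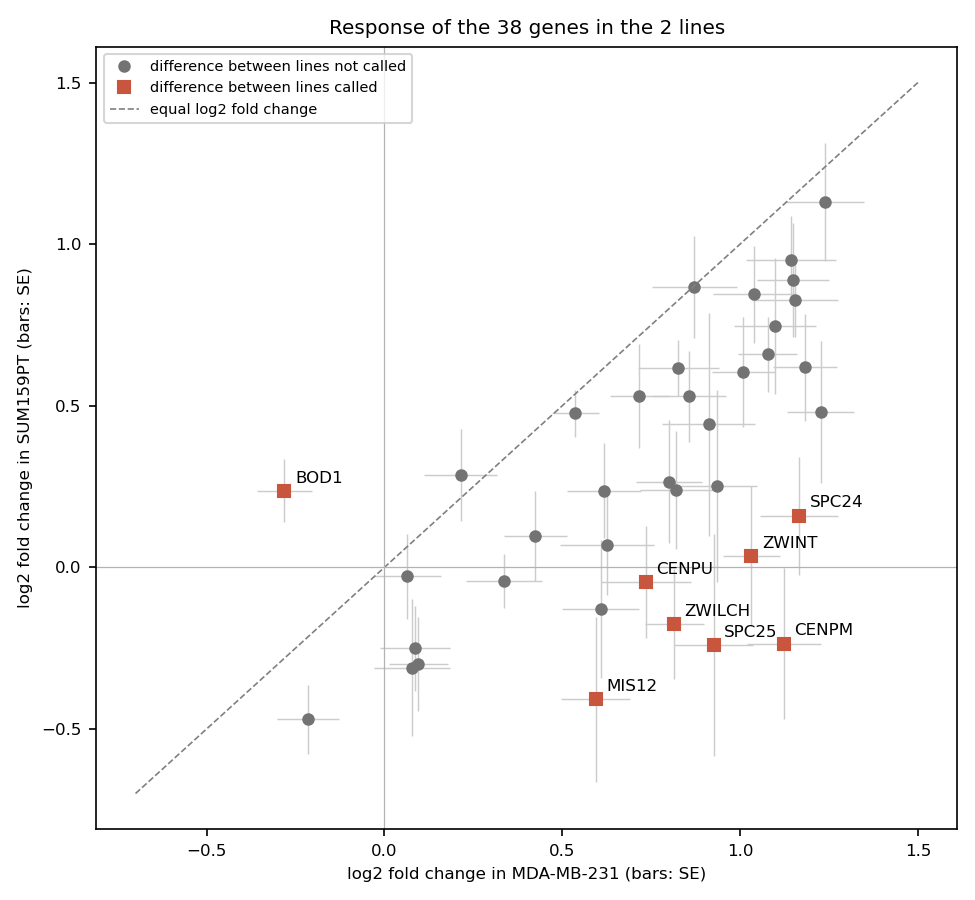
Log2 fold change of the 38 genes in SUM159PT (y axis) against MDA-MB-231 (x axis), each fitted alone, with SEs as bars. The 8 genes whose interaction was called (red squares, named) lie off the dashed line of equal change, BOD1 above it and the other 7 below it at or under 0.16 on the y axis.

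The other genes of the kinetochore and centromere were listed by function, with earlier results of these data known. In MDA-MB-231, 22 of 28 were higher and 0 lower (median 0.87), against 24.9% and 27.5% of all genes. There 23 of 28 were at an unadjusted p under 0.05 by edgeR, against 57.8% of all genes. In SUM159PT, 21 were higher and 3 lower (median 0.66), against 17.7% and 19% of all genes, with 25 at an unadjusted p under 0.05, against 46%. Without siNS replicate 1 the SUM159PT counts were 22 and 2, against 21% and 21.5% of all genes, with the difference in centromere chromatin and the remaining CCAN (5 and 2 of 9). All 10 checkpoint kinases and effectors, among them BUB1, TTK and CDC20, rose in both lines. The largest change was that of PLK1, the mitotic kinase that CENPU binds, at 1.60 and 1.53, and 1.66 in SUM159PT without siNS replicate 1. In centromere chromatin and the remaining CCAN, 6 of 9 rose in MDA-MB-231, and 4 rose and 3 fell in SUM159PT. The largest change was that of CENPA, the histone variant of centromeres, at 1.17 and 1.15, and 1.20 in SUM159PT without that library. The 3 that fell were OIP5 at -1.12, CENPB at -0.54 and CENPX at -0.51. Without that library they had -0.94, which was not called, -0.29 and -0.46. CENPX rose in MDA-MB-231, at 0.50, and its interaction was called lower, at -0.91 (edgeR adjusted p = 0.000234). Of the couplers and microtubule end proteins, 6 of 9 and 7 of 9 rose, led by SKA1, at 1.38 in MDA-MB-231, and SPAG5, at 0.96 in SUM159PT, or 1.01 without that library. These values, too, come from edgeR's quasi-likelihood test over all genes.

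The 5 proliferation markers (MKI67, TOP2A, CCNB1, CCNA2 and CDK1) rose in both lines (5 of 5), with CCNA2 at 1.16 and 1.34 on the log2 scale, and 1.41 in SUM159PT without siNS replicate 1. Their summed level was 732 to 989.6 CPM with siNS and 1699 to 1767 CPM with siYES1 in MDA-MB-231, and 743.3 to 1015 CPM and 1699 to 1763 CPM in SUM159PT. The G1/S genes parted between the lines. In MDA-MB-231, 7 of 9 rose and 0 fell, with MCM7 at 0.90 and 7 of 9 at an unadjusted p under 0.05, against 57.8% of all genes, and their sum went from 1071 to 1212 CPM with siNS to 1555 to 1611 CPM with siYES1. In SUM159PT, 0 rose and 6 fell, with MCM3 at -1.39 and 6 of 9 at an unadjusted p under 0.05, against 46% of all genes, and the sum was 296.2 to 670 CPM with siNS and 255 to 270.4 CPM with siYES1. Without siNS replicate 1, 1 rose and 5 fell in SUM159PT, and MCM3 had -0.78. The interaction was called lower for 8 of the 9, against 8.85% of all genes, and again for 8 without SUM159PT siNS replicate 1, against 10.5%. The part of cell cycle genes in the results on the kinetochore genes was not tested.

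**Figure D4:**
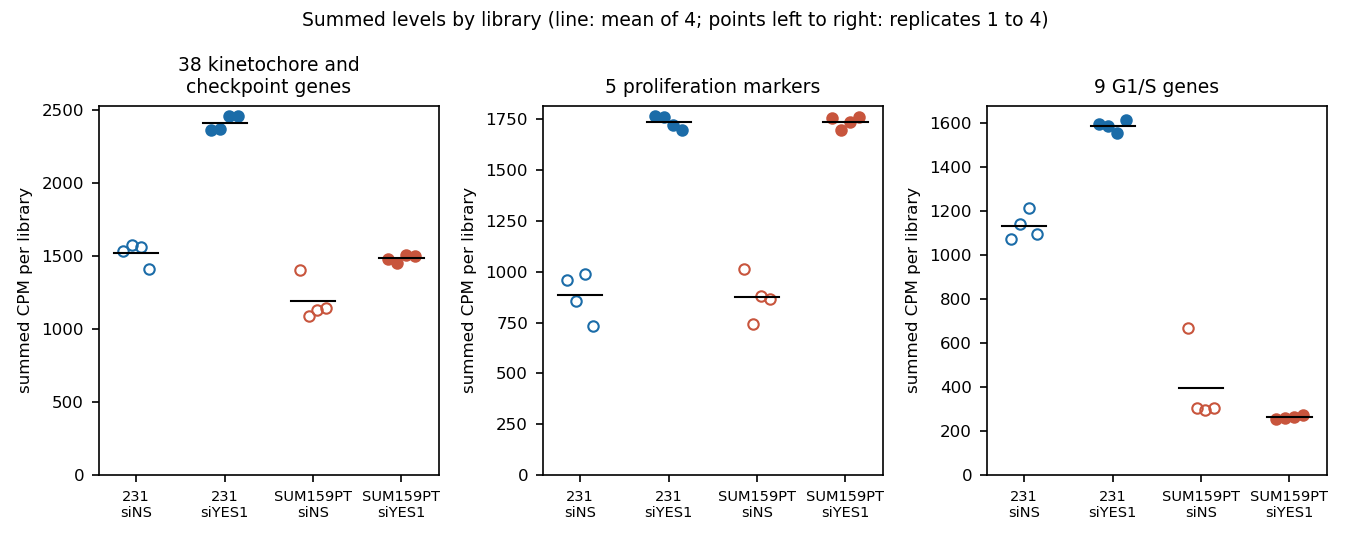
Summed CPM per library (y axis, from 0) of the 38 kinetochore and checkpoint genes, 5 proliferation markers and 9 G1/S genes, by line and siRNA (x axis; 231 is MDA-MB-231), with the mean of 4 as a line. The first siNS point of SUM159PT, at 1399 CPM for the 38 genes and 670 CPM for the G1/S genes, stands above the other 3.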

How the data were processed

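The data are polyadenylated RNA-seq from 2 cell lines and 2 siRNAs, 4 libraries a group. The submitters' processing notes name HISAT2 2.0.5, featureCounts 1.5.0-p3 and the build hg38, and the authors deposited raw counts, with 1 table a line. For the counting step, annotation and strand setting are not given in the sources used. Symbols, exons and coordinates came from GENCODE 29, which held all 58735 identifiers. In edgeR 4.0.16 (R 4.3.3), each line was fitted on its 8 libraries with TMM scaling, filterByExpr and the quasi-likelihood F test, and p-values were adjusted by Benjamini-Hochberg over all genes tested. The SE is the absolute log2 fold change over the root of F. The interaction used all 16 libraries. Libraries of a group differed by more than sampling noise (chi-squared per degree of freedom 2.15 to 44.7). The steps were tested on simulated data. Alternatives were RLE and total count scaling, 2 filters, DESeq2 1.42.0, a replicate block, leaving out each library and, added after the data were seen, scaling within each line. All 38 members are named. In each subcomplex, values in every library are given for the called member with the largest change in each line and, chosen after their values were seen, for MIS12, SPC25 and BOD1. Outside the list, YES1 and the called gene with the largest change of each other list are given with values. OIP5, CENPB and CENPX were added after their values were seen, and line markers are given by their siNS levels only. The members, lists and rules were chosen with earlier results of these data known.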

Additional observations from a re-analysis of the deposited data

Results flagged for a closer look

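In 9 of 152 groups of 4 libraries, 1 library was far from the other 3, where chance would give about 7.6, or 1 in 20. In 6 of the 9 it was SUM159PT siNS replicate 1, which was the highest: NDC80 22.7 CPM against 17.5 to 17.95 CPM, NUF2 26.3 CPM against 15.5 to 17.2 CPM, SPC25 16.6 CPM against 4.81 to 6.70 CPM, CENPH 45.4 CPM against 28.1 to 29.2 CPM, CENPM 17.5 CPM against 8.31 to 8.80 CPM and SGO2 35.6 CPM against 22.4 to 24.5 CPM in the other siNS libraries. The genes share that library, so these are not 6 separate events. CENPQ was lowest in SUM159PT siNS replicate 4, at 5.30 CPM against 6.69 to 6.93 CPM. With siYES1 in SUM159PT, MAD2L1 was lowest in replicate 2, at 96.4 CPM, and CENPW highest in replicate 1, at 18.8 CPM.

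The response differed between the lines for 8 members in the test of the difference itself. The log2 fold change in SUM159PT was smaller by an interaction of -1.26 for CENPM, -1.07 for SPC25, -0.91 for MIS12, -0.91 for SPC24, -0.90 for ZWINT, -0.89 for ZWILCH and -0.68 for CENPU, and larger by 0.61 for BOD1. The call of SPC25 ends without SUM159PT siNS replicate 1 and in 11 of 16 fits that leave out 1 library in all, and that of CENPU in 3 of 16.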

How the results depend on the processing

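In MDA-MB-231, 31 members rose in each of the 14 alternatives run, and BOD1 fell in each. CLASP1 lost its call, leaving 1 member that fell, under RLE scaling, no filter, a mean of 1 CPM or more, DESeq2 and the replicate block. Leaving out 1 library gave 32 to 33 calls, 1 to 2 lower and a median log2 fold change of 0.79 to 0.88. In SUM159PT, total counts as the scaling gave 9 higher, 3 lower and a median of 0.070, and leaving out 1 library gave 14 to 21 calls, 13 to 20 higher, 1 lower and medians of 0.20 to 0.41. The SUM159PT median was 0.29 with the replicate block, in which KNTC1 gained a call (edgeR adjusted p = 0.0496). For the interaction there were 18 calls, 17 of them lower, with total counts. It gave 11 lower with no filter and 11 lower with factors set within each line. RLE scaling and DESeq2 each gave 10 lower, with 1716 and 1991 lower over all genes. There were 6 to 12 interaction calls, 5 to 11 lower, when 1 library was left out. For no filter and for the fits that left out 1 library, shares of all genes are not given here. Those counts therefore do not set the members apart from other genes. The replicate numbers did not pair the samples: deviations of same-numbered libraries correlated at -0.171 to 0.0472 in MDA-MB-231 and -0.0796 to 0.125 in SUM159PT, and in each line 1 of 4 numbers correlated best with itself. With the block SPC25 lost its interaction call (adjusted p = 0.0682).

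Values that changed sign were not called in the fits of all libraries, though ZWINT and SPC24 were called higher in SUM159PT without siNS replicate 1. In SUM159PT with total counts they were -0.076 for ZW10, -0.15 for ZWINT, -0.021 for SPC24 and -0.11 for CENPH. For the interaction, MAD1L1 was -0.055 with RLE scaling and with DESeq2, -0.21 with total counts, -0.038 with no filter, -0.019 at a mean of 1 CPM or more and -0.098 within each line. BUB3 was -0.021 with RLE scaling and with DESeq2, -0.19 with total counts, -0.0054 with no filter and -0.065 within each line. CENPQ was -0.13 and CENPT -0.057 with total counts, CENPQ was -0.0080 within each line, and SGO1 was 0.028 with the block. Leaving out 1 library gave log2 fold changes of CENPK -0.26 to 0.073, CENPM -0.34 to 0.093, CENPU -0.15 to 0.12, MAD1L1 -0.16 to 0.076, SPC25 -0.43 to 0.34, ZWILCH -0.27 to 0.058 and ZWINT -0.087 to 0.34 in SUM159PT, MAD1L1 -0.011 to 0.14 in MDA-MB-231, and CENPQ -0.016 to 0.16, KNL1 -0.20 to 0.011, MAD1L1 -0.19 to 0.11, SGO1 -0.18 to 0.10 and SGO2 -0.17 to 0.049 for the interaction. Why these values moved was not tested. CENPP, at 1.74 to 5.62 CPM in SUM159PT, had an SE of 0.35 on the log2 scale, and how far depth sets it was not tested.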
